A study of Arabidopsis thaliana with 28 samples.

Results

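LHCB4.1, LHCB4.2 and LHCB4.3 are the 3 nuclear genes of Arabidopsis thaliana that encode CP29, a minor antenna protein of photosystem II. They were followed through 1 named probe set each, among 22746 probe sets that are not array controls. All 3 lay above the limit for testing, a mean signal of 27.8, as did 13647 probe sets in all. Their level in each group, their changes between groups and the differences between their changes are described.

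CP29 binds chlorophyll and sits between the photosystem II core and the outer antenna, through which absorbed light energy passes to the reaction centre. Minor antenna proteins also take part in the harmless release of excess light energy and in holding photosystem II supercomplexes together. LHCB4.1 and LHCB4.2 are close in sequence and give most CP29 in leaves, whereas LHCB4.3 is the most divergent of the family and is known for accumulating in strong light. Antenna genes of this kind are read in the nucleus, respond to light and the circadian clock, and yield proteins that are imported into the chloroplast.

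LHCB4.1 (AT5G01530) lies on chromosome 5 from 208866 to 210548, a span of 1683 bases. LHCB4.2 (AT3G08940) lies on chromosome 3 from 2717557 to 2718923, a span of 1367 bases. LHCB4.3 (AT2G40100) lies on chromosome 2 from 16745628 to 16747424, a span of 1797 bases. These are positions of whole genes in assembly TAIR10.1. No source used here names the build behind the array design. The place of the probes within each gene was not examined, and neither was cross-hybridisation between these related transcripts.

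Affymetrix ATH1 arrays carried biotin-labelled target from total RNA of leaves of the wild-type accession Col-0, from a study of systemic signals of irradiance and CO2, in its branch with low light at ambient CO2. Mature leaves after 24 h had 2 replicates. Developing leaves, at insertions 19 to 21, had 4 replicates each after 2, 4, 12, 24, 48 and 96 h. All plants grew in compost in a growth room at 20 °C, 50% humidity and a 10 h light period, and no untreated array was used here, so that every comparison was between times or leaf ages. No label gives the hour of the day at which leaves were taken. Among 2, 4, 12 and 24 h, hours of treatment and time of day therefore cannot be told apart. By their labels 24, 48 and 96 h lie whole days apart, the same hour of the day if treatment began at a fixed time. The sources used here do not give the meaning of the letters AS in the treatment notes or say whether replicates were separate plants. The p-values therefore measure the spread between these samples, which may be technical. A pair of arrays was titled 24 h replicate 1, and its mean counted as 1 replicate. Array medians ran from 40.8 to 48.1 against a trimmed mean of 100 to which every array had been scaled.

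Marker genes were checked against the labels. RCA, SBPASE and HPR, the 3 tested of 8 genes listed as markers of leaf mesophyll, had a summed signal of 9441 to 10860 in mature leaves and of 4954 to 10690 over all developing leaves. No probe set was matched for the listed genes of phloem, root, flower or epidermis. The log2 ratio of the 3′ to the 5′ actin control probe set, a sign of RNA quality, averaged 1.67 ± 0.742 (SD, n = 2) in mature leaves. Developing leaves averaged 2.56 ± 0.505 after 2 h and 2.47 ± 0.543 after 4 h, and the later times lay between 1.76 and 2.05 (n = 4 each). It was thus lower on average in the 12 h leaves than in those before them, and its part in the changes below was not tested.

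LHCB4.1, the first of the CP29 genes, was among the strongest signals of these leaves, at percentile 99.9 of the 22746 probe sets that are not array controls. Its lowest group was the 12 h leaves. The linear MAS5 signal was 4898 and 4573 in mature leaves. In developing leaves replicates 1 to 4 gave 3442, 3615, 2531 and 3151 after 2 h. The 4 h leaves gave 3398, 4058, 4437 and 3269. The 12 h leaves gave 2323, 3023, 2701 and 2411, with every value below all those of the 4 h and 24 h leaves. The 24 h leaves had 4901, 3751, 3317 and 3832, the widest range of any group. After 48 h the values were 4571, 3680, 3203 and 3578, and after 96 h they were 3508, 3706, 4139 and 4215. The groups ran, by mean, from developing leaves at 12 h through 2, 48, 4, 96 and 24 h to mature leaves, and in that order each group overlapped its neighbour.

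LHCB4.2, the close relative of LHCB4.1, showed a deep low at 12 h. In mature leaves the signal was 4372 and 5057, above every developing leaf. In developing leaves replicates 1 to 4 gave 2722, 2470, 1796 and 2701 after 2 h. The 4 h leaves gave 2539, 2454, 2531 and 2316. The 12 h values were 767, 680, 663 and 638, so that the highest of these replicates lay far below the lowest of any other group. The gene was back at 3805, 2676, 2926 and 2406 in the 24 h leaves. After 48 h it stood at 3839, 2589, 2516 and 2550, where replicate 1 lay apart from the other 3. The 96 h leaves gave 2537, 2606, 3083 and 2652. In the order of means, 12 h stood alone at the bottom and mature leaves alone at the top, while 2, 4, 96, 48 and 24 h overlapped in between.

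LHCB4.3, the divergent member, ran the other way. Its signal was 241 and 233 in mature leaves, the lowest group mean. In developing leaves replicates 1 to 4 gave 462, 375, 329 and 368 after 2 h. The 4 h leaves gave 314, 310.2, 217 and 231, all below the 2 h values. The 12 h leaves gave 593, 739, 637 and 708, the highest group mean. The 24 h leaves had 437, 438, 351 and 352, and the 48 h leaves 369.7, 394, 433 and 417, in the same range. After 96 h the values were 695, 498, 588 and 469, with every replicate above those of the 24 h leaves. By mean, mature leaves and 4 h overlapped at the bottom, 2, 24 and 48 h overlapped in the middle, and 96 and 12 h overlapped at the top, with no overlap between these 3 steps. Signals of different probe sets are not comparable as levels, so no ranking of the genes by abundance follows from these values.

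**Figure D1:**
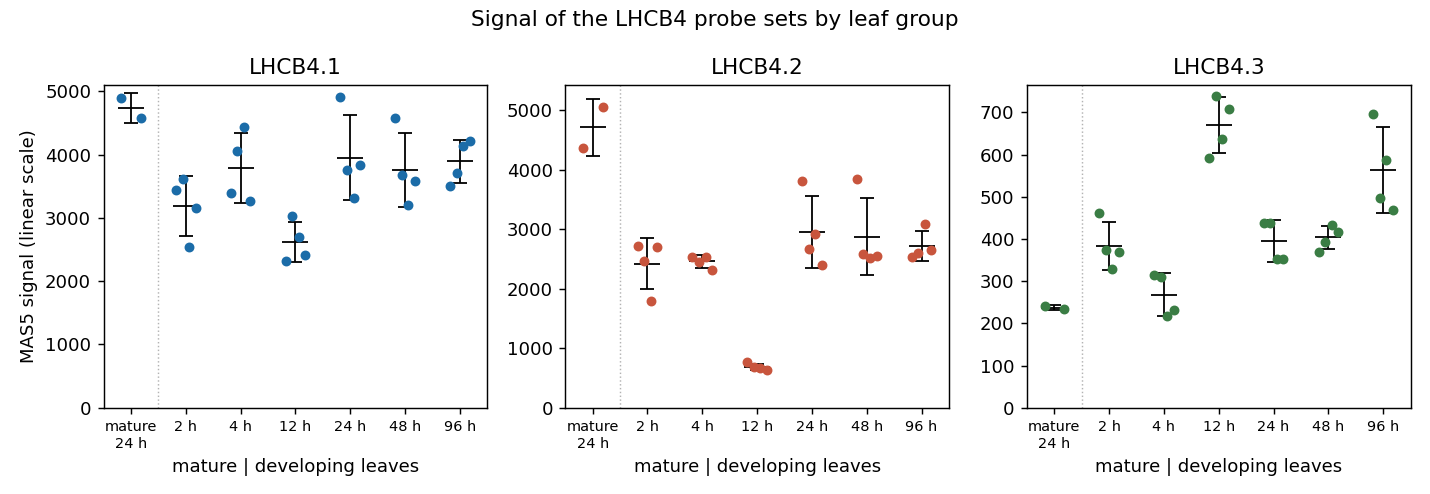
Linear MAS5 signal of the probe set of each CP29 gene, with mature leaves at 24 h on the left and developing leaves at 2 to 96 h on the right of the dotted line. Points are replicates and bars are means ± SD (n = 2 mature, n = 4 per developing time). LHCB4.2 averaged 687 at 12 h and at least 2422 in all other groups, and LHCB4.3 averaged 669 at 12 h.

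Over the 6 times in developing leaves, all 3 genes varied by a moderated F test in limma, which called 57.7% of the probe sets tested. The adjusted p was 2.18e-12 for LHCB4.2, 3.95e-08 for LHCB4.3 and 0.00169 for LHCB4.1. By size of F, LHCB4.2 ranked 243 among the 13647 probe sets, LHCB4.3 ranked 1045 and LHCB4.1 ranked 4807. With quantile normalization the F test of LHCB4.1 missed the threshold of 0.05, with an adjusted p of 0.06.

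Between 4 h and 2 h, only LHCB4.3 of the 3 passed the test, and it fell. It averaged 268 ± 51.2 at 4 h and 383 ± 56.0 at 2 h (SD, n = 4 each). The log2 change was -0.51 (SE 0.13, adjusted p = 0.0256 in limma), so the signal at 2 h was 1.42-fold that at 4 h. In this comparison 2.78% of all probe sets passed, and 7.55% had no overlap between both groups. LHCB4.1 gave 0.25 (95% interval -0.02 to 0.52) and LHCB4.2 gave 0.04 (-0.25 to 0.33) on the log2 scale, neither past the threshold. The change of LHCB4.3 minus that of LHCB4.1 was -0.76 (SE 0.18, adjusted p = 0.0158 in limma), with 2.04% of such ratios called. The change of LHCB4.3 minus that of LHCB4.2 was -0.55 (unadjusted 95% interval -0.93 to -0.17, adjusted p = 0.383), with 0.623% called. The fall of LHCB4.3 kept its direction but was no longer called when replicate 1 of the 2 h leaves was left out (-0.42, adjusted p = 0.111), nor without replicate 3 (-0.42, 0.128) or replicate 4 (-0.45, 0.104) of the 4 h leaves, nor with only the 2 groups fitted (-0.51, 0.106). The difference from LHCB4.1 lost its call without replicate 1 (adjusted p = 0.0509) or replicate 3 (0.0794) of the 2 h leaves and without replicate 3 of the 4 h leaves (0.166). Quantile normalization made the differences -0.43 (adjusted p = 0.0471) from LHCB4.1 and -0.31 (0.238) from LHCB4.2.

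At 12 h against 4 h, LHCB4.2 and LHCB4.1 fell and LHCB4.3 rose. LHCB4.2 averaged 687 ± 55.9 at 12 h against 2460 ± 103 at 4 h (SD, n = 4 each), a log2 change of -1.83 (SE 0.14, adjusted p = 1.1e-10 in limma). LHCB4.1 averaged 2615 ± 317 at 12 h against 3791 ± 552 at 4 h, a smaller fall of -0.53 (SE 0.13, adjusted p = 0.00254). LHCB4.3 rose, with 669 ± 66.6 at 12 h against 268 ± 51.2 at 4 h and a log2 change of 1.3 (SE 0.13, adjusted p = 1.52e-08). At 4 h the LHCB4.2 signal was thus 3.55-fold that at 12 h, while the LHCB4.3 signal at 12 h was 2.46-fold that at 4 h. All 3 genes passed in a comparison that called 33.4% of all probe sets, 15.4% lower and 18% higher at 12 h. For none of the 3 did the 12 h and 4 h values overlap, as for 32.8% of all probe sets. Among all probe sets tested, 29 fell by more than LHCB4.2 and 52 rose by more than LHCB4.3. Of the 6 tested genes listed for dividing cells and the guard cell lineage, PRL and EPFL9 were called. PRL, a DNA replication helicase gene, fell (-0.87, adjusted p = 1.35e-05 in limma). EPFL9, for a peptide that promotes stomata, rose (0.47, adjusted p = 0.00114). Sums over the 3 dividing cell markers were 323.5 to 415.5 at 12 h and 442.3 to 534.6 at 4 h. Sums over the 3 genes listed for the guard cell lineage were 499.7 to 606.1 at 12 h and 437.9 to 454.1 at 4 h. EPFL9 made up most of the latter, averaging 431.5 at 12 h and 307.7 at 4 h. SPCH averaged 51.5 and 75.8 and FMA 59.3 and 60.9, so of the 3 only EPFL9 was higher at 12 h by mean. Of the mesophyll markers HPR rose (0.48, adjusted p = 0.00617 in limma) and SBPASE gave no call (0.11). RCA fell (-0.35, adjusted p = 0.0463), with an adjusted p up to 0.966 in alternatives. Mesophyll sums were 5743 to 6473 at 12 h and 5692 to 6837 at 4 h. The part of all these markers in the changes of the CP29 genes was not tested.

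Against 2 h, the same 12 h samples gave a log2 change of -1.79 for LHCB4.2 (SE 0.14, adjusted p = 8.34e-11 in limma) and of 0.79 for LHCB4.3 (SE 0.13, adjusted p = 1.74e-05). LHCB4.1, at -0.28 (95% interval -0.55 to -0.01), missed the threshold with an adjusted p of 0.0972. Its call depended on settings, with an adjusted p of 0.0238 without 2 h replicate 3 and 0.00924 after quantile normalization. The comparison called 38.7% of all probe sets, with no overlap for 35.7%, and 61 fell by more than LHCB4.2. PRL (-1.15) and SPCH (-0.62), for a factor that starts the stomatal lineage, fell here, and AUR1 (0.37), for a mitotic kinase, and EPFL9 (0.42) rose, with the calls of SPCH and AUR1 lost in some alternatives (adjusted p up to 0.0625 and 0.0601). Of the mesophyll markers HPR alone was called (0.34, adjusted p = 0.0438 in limma, up to 0.115 in alternatives). Mesophyll sums were 5743 to 6473 at 12 h and 4954 to 6599 at 2 h. The part of these markers was not tested. The comparison shares its 12 h samples with the comparison against 4 h and is no separate evidence about them.

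Whether the genes changed unequally was tested on the log2 ratio of their signals within each array. At 12 h against 4 h, the change of LHCB4.2 minus that of LHCB4.1 was -1.30 on the log2 scale (SE 0.12, adjusted p = 4.45e-11 in limma). The change of LHCB4.3 was greater by 1.83 than that of LHCB4.1 (SE 0.18, adjusted p = 5.17e-10) and by 3.13 than that of LHCB4.2 (SE 0.19, adjusted p = 2.02e-16). The last difference is an 8.75-fold shift between both signals. Ratios of this kind passed for 67.3% of all probe sets against LHCB4.1 and for 99.6% against LHCB4.2, so that nearly every probe set changed unequally with LHCB4.2. Against 2 h the differences were -1.51, 1.07 and 2.58 in the same order, all past the threshold (adjusted p from 7.85e-15 to 1.72e-05), where 36.2% and 99.1% of all probe sets passed. An exact two-sided permutation test of each ratio, with 4 against 4 replicates, gave its smallest possible p of 0.0286 for all 6 differences and 0.05 after adjustment over 21 such tests, which is not under the threshold.

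**Figure D2:**
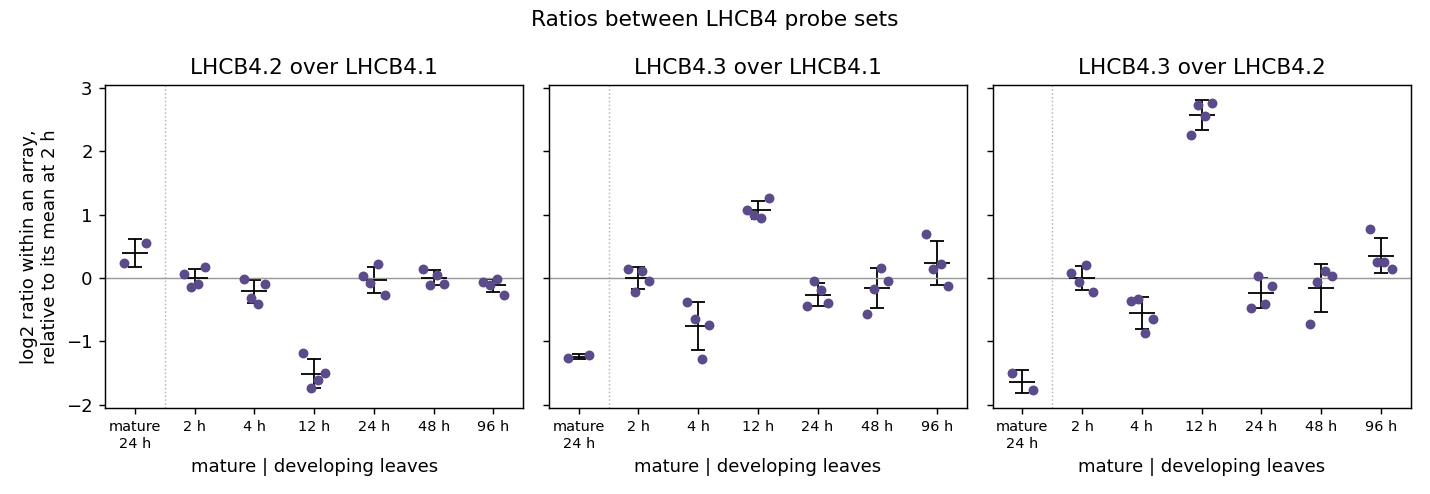
Log2 ratio between the signals of 2 CP29 genes within each array, set to 0 at the mean of developing leaves at 2 h, with mature leaves on the left. Points are replicates and bars are means ± SD (n = 2 mature, n = 4 per developing time). At 12 h LHCB4.3 over LHCB4.2 averaged 2.58 above the 2 h mean, and in mature leaves -1.63.

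By 24 h the 3 genes had reversed these changes. LHCB4.2 averaged 2953 ± 606 at 24 h against 687 ± 55.9 at 12 h (SD, n = 4 each), a 4.2-fold rise (log2 change 2.07, SE 0.14, adjusted p = 2.02e-12 in limma). LHCB4.1 rose to 3950.5 ± 673 at 24 h, against 2615 ± 317 at 12 h, by 0.59 (SE 0.13, adjusted p = 0.000682). LHCB4.3 fell to 395 ± 49.6 at 24 h, against 669 ± 66.6 at 12 h, with a log2 change of -0.75 (SE 0.13, adjusted p = 3.17e-05). This comparison called 42.2% of all probe sets, 20% higher and 22.2% lower at 24 h, and 88 of them rose by more than LHCB4.2. Values of the 24 h and 12 h leaves overlapped for none of the 3 genes, as for 39.5% of all probe sets. The differences between the changes were 1.48 for LHCB4.2 minus LHCB4.1, -1.34 for LHCB4.3 minus LHCB4.1 and -2.82 for LHCB4.3 minus LHCB4.2, each past the threshold (adjusted p up to 1.2e-07). The backgrounds were 71.3% of ratios to LHCB4.1 and 99.4% of ratios to LHCB4.2. Of the mesophyll markers RCA (0.62) and SBPASE (0.33) rose and HPR (0.23) was not called. Mesophyll sums were 7109 to 10690 at 24 h and 5743 to 6473 at 12 h. After quantile normalization SBPASE gave 0.035 (adjusted p = 0.726). Of the other markers, PRL (0.99) and SPCH (0.74) rose and EPFL9 (-0.47) and AUR1 (-0.36, adjusted p up to 0.062 in alternatives) fell. The part of all these markers was not tested. Sums were 413.7 to 527.8 at 24 h and 323.5 to 415.5 at 12 h for dividing cells. For the genes listed for the guard cell lineage they were 404.9 to 507.1 at 24 h and 499.7 to 606.1 at 12 h. The lineage sums were mostly EPFL9, while SPCH averaged 96.0 at 24 h and 51.5 at 12 h. The rise of LHCB4.1 kept its call in 18 of 19 alternatives and lost it after quantile normalization, at 0.13 with an adjusted p of 0.138. That step gives every array the same distribution of signals. For a gene at percentile 99.9 it therefore cannot tell a change of the gene from a shift of the scale.

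The levels at 24 h were also set against those at 2 h. None of the 3 genes passed, and their values overlapped between both times, in a comparison that called 12.1% of all probe sets and had no overlap for 15.2%. The log2 changes were 0.31 for LHCB4.1 (95% interval 0.04 to 0.58, adjusted p = 0.136 in limma) and 0.28 for LHCB4.2 (-0.0036 to 0.57, adjusted p = 0.208). LHCB4.3 gave 0.04 (-0.22 to 0.31, adjusted p = 0.879). Quantile normalization made these -0.10 for LHCB4.1 and 0.0049 for LHCB4.2, and with a replicate left out the lowest values were 0.20 and 0.15. No difference between their changes passed either, with adjusted p from 0.281 to 0.877, where 15.1% of ratios to LHCB4.1 and 9.56% of ratios to LHCB4.2 passed. The mesophyll markers RCA (0.49), SBPASE (0.35) and HPR (0.57) were all called higher at 24 h. These calls were lost in some alternatives (adjusted p up to 0.0739, 0.176 and 0.0515). Mesophyll sums were 7109 to 10690 at 24 h and 4954 to 6599 at 2 h, and their part was not tested.

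From 24 h on, LHCB4.1 and LHCB4.2 gave no call, and LHCB4.3 was higher at 96 h. LHCB4.3 averaged 562.5 ± 102 at 96 h against 395 ± 49.6 at 24 h (SD, n = 4 each), a log2 change of 0.49 (SE 0.13, adjusted p = 0.0158 in limma), with 8.96% of all probe sets called and no overlap for 14.6%. Its adjusted p was 0.0799 without 96 h replicate 1, and leaving out 24 h replicate 3 or 4 gave 0.065 or 0.0574. Without 24 h replicate 3 the count of probe sets called fell to 733, against 1223 with all replicates. SPCH, of the guard cell lineage, fell at 96 h (-0.82, adjusted p = 0.00612), the only call among the 6 markers of dividing cells and that lineage, and its part was not tested. Sums were 331.7 to 392.8 at 96 h and 404.9 to 507.1 at 24 h for the lineage list, and 336.4 to 396 at 96 h and 413.7 to 527.8 at 24 h for dividing cells. EPFL9, which was not called, made up most of the lineage sums, averaging 266 at 96 h and 309.7 at 24 h. LHCB4.1 changed by -0.01 (95% interval -0.28 to 0.26) and LHCB4.2 by -0.10 (-0.39 to 0.19). The change of LHCB4.3 exceeded that of LHCB4.1 by 0.50 (95% interval 0.13 to 0.87, adjusted p = 0.199 in limma). It exceeded that of LHCB4.2 by 0.59 (0.21 to 0.98, adjusted p = 0.102). These intervals are not adjusted. Neither difference passed after adjustment over all ratios, of which 2% and 2.41% were called. After quantile normalization both differences passed, at 0.42 (adjusted p = 0.0263) and 0.47 (adjusted p = 0.0422).

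At 48 h against 24 h the 3 log2 changes were -0.07 for LHCB4.1, -0.04 for LHCB4.2 and 0.04 for LHCB4.3, with intervals of at most 0.34 to either side of 0. The limma adjusted p was 0.999 for each, 0.0659% of all probe sets were called (no overlap for 3.11%), and 716 had an unadjusted p under 0.05. The differences between their changes were 0.03 for LHCB4.2 minus LHCB4.1, 0.11 for LHCB4.3 minus LHCB4.1 and 0.08 for LHCB4.3 minus LHCB4.2, none past the threshold, with 0.161% of ratios to LHCB4.1 and 0.103% of ratios to LHCB4.2 called. Samples with the same replicate number deviated together in this comparison, with correlations of 0.13 to 0.619, and a fit with the number as a block gave no call for the 3 genes either.

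**Figure D3:**
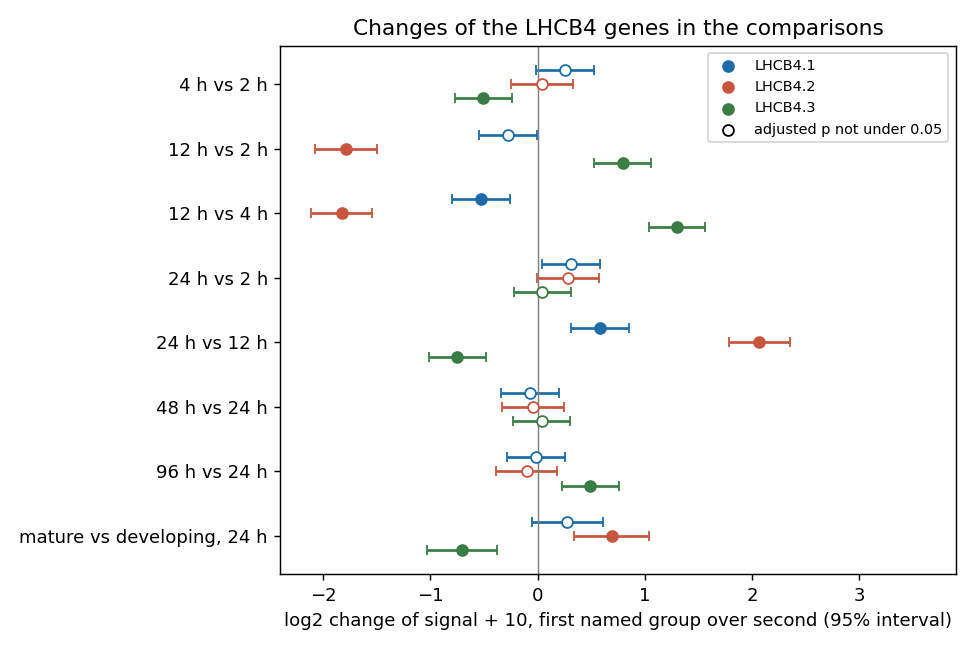
Log2 change of signal + 10 of the 3 CP29 genes in 8 comparisons, each the first named group over the second, with 95% intervals from the limma fit. Filled points had an adjusted p under 0.05 and open points did not. At 12 h against 4 h LHCB4.2 stood at -1.83 and LHCB4.3 at 1.3, and at 24 h against 12 h the signs were turned.

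Mature leaves had more LHCB4.2 signal and less LHCB4.3 signal than developing leaves at the same 24 h. LHCB4.2 averaged 4714 ± 484 in mature leaves (SD, n = 2) against 2953 ± 606 in developing leaves (n = 4), 1.61-fold, with a log2 change of 0.69 (SE 0.17, adjusted p = 0.000907 in limma). LHCB4.3 averaged 237 ± 5.78 in mature leaves against 395 ± 49.6 in developing leaves, a log2 change of -0.70 (SE 0.16, adjusted p = 0.000334). LHCB4.1, at 4736 ± 230 in mature leaves and 3950.5 ± 673 in developing leaves, gave 0.27 (95% interval -0.06 to 0.61, adjusted p = 0.139). In this comparison 64.6% of all probe sets were called, 27.1% higher and 37.5% lower in mature leaves, and the values of both groups did not overlap for 70.2%, so 2 calls among 3 genes lie near the background. The median change over all probe sets was -0.103 on the log2 scale. The direction of LHCB4.1 was not settled, with an adjusted p of 0.0357 without 24 h replicate 1 and a log2 change of -0.00068 after quantile normalization, which also lowered the change of LHCB4.2 to 0.39.

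The genes also differed from each other between the leaf ages. The change of LHCB4.3 minus that of LHCB4.1 was -0.98 on the log2 scale (SE 0.22, adjusted p = 0.000276 in limma). Against LHCB4.2 it was -1.39 (SE 0.23, adjusted p = 2.24e-06). LHCB4.2 exceeded LHCB4.1 by 0.42 (SE 0.14, adjusted p = 0.0131), which was 0.26 with an adjusted p of 0.255 without mature replicate 2 and had an adjusted p of 0.0563 without 24 h replicate 4. Of all probe sets, 56.6% differed from LHCB4.1 in this way and 72.4% from LHCB4.2. Markers of other cells moved with leaf age too. The comparison called 37.5% of all probe sets lower and 27.1% higher in mature leaves. The 3 tested genes of dividing cells, PRL, AUR1 and AUR2, all fell, with sums of 100.3 to 100.9 in mature leaves against 413.7 to 527.8 in developing leaves. Of the 3 tested genes listed for the guard cell lineage, SPCH and EPFL9 fell, SPCH itself being at 2.71 in mature leaves. Sums over the 3 were 83.0 to 87.6 in mature leaves against 404.9 to 507.1, mostly EPFL9, in developing leaves. The 3 mesophyll markers summed to 9441 to 10860 in mature leaves and 7109 to 10690 in developing leaves, and 1 of them, the peroxisomal enzyme gene HPR, rose. The part of these cells in the result was not tested, and in whole leaves fewer cells of a type and less RNA per cell cannot be told apart.

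The strongest signals of the arrays differed between groups. The mean of the 100 strongest probe sets was 4101 ± 361 in mature leaves. In developing leaves after 2, 4, 12, 24, 48 and 96 h it was 2792 ± 383, 3284 ± 366, 2584 ± 190, 3521 ± 547, 3319 ± 530 and 3270.0 ± 333 in that order (SD). The lowest group was 12 h and the highest mature leaves, as for LHCB4.1. The part of this shift in the changes of LHCB4.1 was not tested beyond the quantile alternative. That alternative takes out shifts of the strongest signals whatever their source, so it cannot separate them from a change of LHCB4.1 itself. The fall of LHCB4.1 at 12 h against 4 h stayed past the threshold there at -0.18 (adjusted p = 0.0423), against -0.53 on the deposited scale.

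Likeness across the 26 replicates of all 7 groups was described with Pearson's r of log2 signals over 7433 other probe sets with 1 named gene. The replicates fall into groups and share arrays and scaling, so r carries no p. LHCB4.1 and LHCB4.2 had r = 0.819, which put LHCB4.2 at rank 17 for LHCB4.1 and LHCB4.1 at rank 59 for LHCB4.2. LHCB4.3 had r = -0.481 with LHCB4.1 and r = -0.629 with LHCB4.2, which put it at rank 6290 and at rank 6808 of 7433. In the order for LHCB4.3 itself, LHCB4.1 stood at rank 7275 and LHCB4.2 at rank 7405, near the bottom.

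The genes most like LHCB4.1 were PSAN, a subunit of photosystem I, with r = 0.933, and RCA, the Rubisco activase gene, with r = 0.931. PSBY, a small photosystem II protein, had r = 0.916, AT1G74470, the geranylgeranyl reductase gene of chlorophyll synthesis, had r = 0.913, and the plastid gene atpB, for an ATP synthase subunit, had r = 0.889. PSAN averaged 3496 in mature leaves and, in developing leaves, 2081, 2254, 1296, 2408, 2303 and 2496 from the first to the last time, so that it too was lowest at 12 h.

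The genes most like LHCB4.2 were AT5G57345 with r = 0.958, TIL, a temperature-induced lipocalin, with r = 0.939, and AT3G46630 with r = 0.938. PSAN had r = 0.936 and AT3G21670, a nitrate transporter family gene, had r = 0.934. They shared the low at 12 h. TIL averaged 1347 in mature leaves and, in developing leaves, 738, 840, 279, 708, 740 and 703 from the first to the last time.

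Likeness to LHCB4.3 was lower. AT5G10290 had r = 0.863, AT1G15260 had r = 0.847, AT2G44310 had r = 0.836, AT1G30300 had r = 0.793 and AT3G07270 had r = 0.784. AT2G44310 averaged 255 in mature leaves, its lowest group, and in developing leaves 376, 365, 522, 358, 389 and 423 from the first to the last time, highest after 12 h.

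Of 21 listed light-harvesting genes, the 3 CP29 genes were those matched to a named probe set, and the rest were not analysed here, nor were the listed genes for antenna regulation and import. Of the listed photosystem subunits, 4 were tested, PSBY and PSBW of photosystem II and PSAE-1 and PSAN of photosystem I. At 12 h against 4 h all 4 fell, with log2 changes from -0.79 to -0.46 and a median of -0.63, against a median of 0.0262 over all probe sets. Of all probe sets, 15.4% were called lower there. At 24 h against 12 h all 4 rose, by 0.48 to 0.87, with a median of 0.72 against -0.00963. This comparison called 20% of all probe sets higher. The calls of PSBW were lost after quantile normalization, with an adjusted p of 0.188 for 12 h against 4 h and 0.489 for 24 h against 12 h, and also without 4 h replicate 3 (0.0618) and without 24 h replicate 1 (0.0792). In mature against developing leaves all 4 rose, by 0.49 to 0.65, where 27.1% of all probe sets were called higher. The median over all probe sets was -0.103. The calls of PSBW and PSAE-1 were lost in some alternatives. Examples are PSBW with the compared groups only (adjusted p = 0.068 in limma) and PSAE-1 after quantile normalization (0.162). The change of LHCB4.1 lay within these ranges at 24 h against 12 h and at 12 h against 4 h, that of LHCB4.2 went beyond them in the same direction, and that of LHCB4.3 had the opposite sign. At 12 h against 2 h 3 of the 4 photosystem genes fell, in a comparison that called 38.7% of all probe sets. None of the 4 passed in 4 h against 2 h, 24 h against 2 h, 48 h against 24 h or 96 h against 24 h. These comparisons called 2.78%, 12.1%, 0.0659% and 8.96% of all probe sets in that order, so no call among 4 genes lies near the background.

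Of the genes of chlorophyll synthesis and of regulation, some followed other courses than LHCB4.1 and LHCB4.2 and some did not. PORB, which makes the light-dependent enzyme of chlorophyll synthesis, rose at 4 h against 2 h by 0.75, and its log2 change was -1.0 at 12 h against 4 h and -0.85 at 24 h against 12 h, where LHCB4.1 and LHCB4.2 rose. CHLM, the methyltransferase of the same pathway, passed in mature leaves alone, at 0.32. By mean CHLM was lowest at 12 h (1136) and highest in mature leaves (1588), as LHCB4.1 was. AT1G74470, of the same pathway and named above, also was lowest at 12 h (1732) and highest in mature leaves (3409). HYH, a transcription factor of light signalling related to HY5, averaged 104 at 24 h and 21.5 at 12 h, a log2 change of 1.86. It averaged 20.9 in mature leaves against 104 in developing leaves at 24 h, a log2 change of -1.91. GI, a clock-linked gene that cycles over the day, changed by 1.24 at 4 h against 2 h, by -3.14 at 12 h against 4 h and by 1.5 at 24 h against 12 h. Its direction was that of LHCB4.1 and LHCB4.2 in the last 2 of these comparisons, and the part of the time of day in their changes was not tested.

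**Figure D4:**
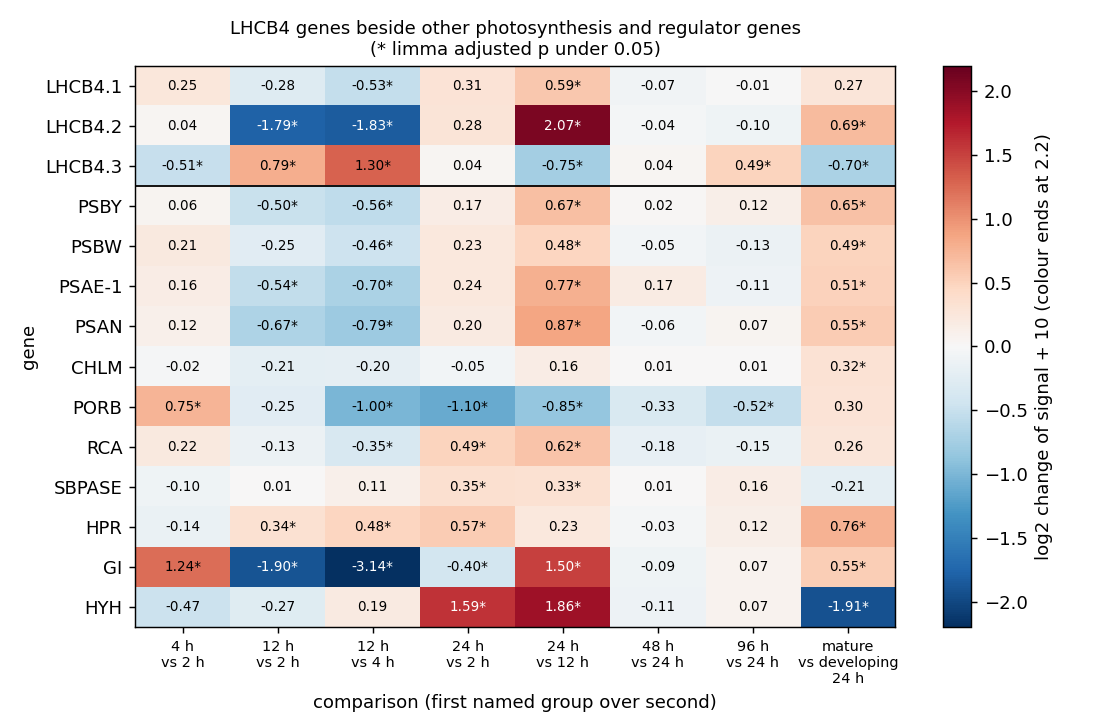
Log2 change of signal + 10 in 8 comparisons, first named group over second, for the CP29 genes above the line and for other genes of the photosystems, chlorophyll synthesis, mesophyll metabolism and regulation below it. Asterisks mark a limma adjusted p under 0.05. At 12 h against 4 h the 4 photosystem genes stood between -0.79 and -0.46 and LHCB4.3 at 1.3.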

How the data were processed

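The authors deposited 1 intensity for each probe set and array, a linear signal that the submitters' processing notes credit to MAS5. The values themselves showed a 2% trimmed mean of 100 on each array. The version is not stated, and no detection call was used. A pseudocount of 10 was added to the signal before taking log2, so changes of weak signals are understated. The test took probe sets whose mean exceeded the 40th percentile, a signal of 27.8. The 26 replicates of 7 groups entered a single model, which left 19 residual degrees of freedom. It was fitted with lmFit and a trended eBayes step of limma 3.58.1, run in R 4.3.3. The tests were two-sided, with Benjamini-Hochberg adjustment over 13647 probe sets and a threshold of 0.05. Unequal change was tested by the same model on the log2 ratio, within each array, of 13646 probe sets to LHCB4.1 or LHCB4.2.

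Of 28 arrays 27 were used. Replicate 1 at 24 h is the mean of its pair of arrays, and 1 array with a different treatment note was left out. Gene names came from the platform annotation, updated through TAIR10.1, with the strongest probe set for each gene. The 3 genes and the gene lists were chosen with earlier results of these data known. Named beside them were list members and, for each, the 5 named genes with the highest r. On simulated data with 13647 probe sets, 52% of changes of 0.5 and 98% of changes of 1 were recovered for 12 h against 2 h, and 30% and 88% for mature leaves. The ratio fits, on 13646 probe sets, recovered 38% of 0.5, 100% of 1 and 92% of -1 for 12 h against 2 h, where changes of 1 were estimated at 1.14 and of -1 at -0.876. For mature leaves they recovered 2%, 90% and 44%, with estimates of 1.17 and -0.873. The simulation drew independent noise for each probe set and changed only a small share of them. The real comparisons called 38.7% for 12 h against 2 h and 64.6% for mature leaves, so the recovery here may differ. Same-numbered replicates deviated together, with every correlation over 0.1, only for 12 h against 4 h (0.147 to 0.388) and 48 h against 24 h. The alternatives were pseudocounts, filters, quantile normalization, median centring, a replicate block, the compared groups only, eBayes without trend, either array of the doubled replicate, exact permutation and each replicate left out, with developing replicates 1 and 2 alone set against mature leaves. The number of arrays limits the precision.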

Additional observations from a re-analysis of the deposited data

Results flagged for a closer look

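LHCB4.2 had 1 value apart from its group. In developing leaves at 48 h, replicate 1 stood at 3839 and the other 3 replicates between 2516 and 2589, and the gap made up 0.945 of the whole range, above Dixon's 95% critical value for 4 samples. With 18 groups of 4 examined, chance marks about 1 in 20. The array of this replicate also had the highest LHCB4.1 value of its group, 4571 against 3203 to 3680 in the others. For LHCB4.3 it had the lowest, 369.7. Its median signal, 48.1, was the highest of all arrays, and the part of the whole array in the value was not tested. Without this replicate the change at 48 h against 24 h was -0.19, and it was past no threshold with or without it.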

How the results depend on the processing

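Over the 24 changes of the 3 genes and 453 alternative values, 417 kept direction and side of the threshold, 25 turned sign, 8 lost and 3 gained a call. Over the 24 differences and 471 values these counts were 443, 10, 16 and 2. The calls of LHCB4.2 and LHCB4.3 at 12 h against 2 h and 4 h, at 24 h against 12 h and in mature leaves kept direction and side in every alternative run. A replicate block changed no call of the genes, their differences or F tests, and gave -0.53 for LHCB4.1 at 12 h against 4 h (adjusted p = 0.00321).

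After quantile normalization the log2 change of LHCB4.1 was -0.046 at 4 h against 2 h, -0.23 at 12 h against 2 h (now past the threshold), -0.10 at 24 h against 2 h, 0.13 at 24 h against 12 h, 0.031 at 48 h and 0.075 at 96 h against 24 h, and -0.00068 in mature leaves, and its F was 2.84. LHCB4.2 became -0.165 at 4 h against 2 h, 0.037 at 48 h and 0.024 at 96 h against 24 h, none past the threshold. The differences at 24 h against 2 h became 0.10 (LHCB4.2 minus LHCB4.1), 0.17 (LHCB4.3 minus LHCB4.1) and 0.067 (LHCB4.3 minus LHCB4.2), and at 96 h those of LHCB4.3 became 0.42 and 0.47. RCA at 12 h against 4 h became 0.0036. The cause was not tested.

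The fall of LHCB4.3 at 4 h, -0.51, lost its call with the compared groups only, and the difference of 0.42 between LHCB4.2 and LHCB4.1 in mature leaves without trend (adjusted p = 0.0638). The first 24 h array alone gave 0.00074 for LHCB4.2 minus LHCB4.1 at 24 h against 2 h and 0.031 for LHCB4.1 at 96 h, and the second -0.0019 for LHCB4.3 at 48 h. By exact permutation, -0.76 at 4 h, -1.51, 1.07 and 2.58 at 12 h against 2 h, -1.30, 1.83 and 3.13 against 4 h, and 1.48, -1.34 and -2.82 at 24 h against 12 h had an adjusted p of 0.05. The same held for LHCB4.3 minus LHCB4.2 at 4 h against 2 h and at 96 h against 24 h, not called in limma. Each had the smallest possible p of 0.0286, and the adjusted value also depends on how many of the 21 tests reached it.

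With each replicate left out, LHCB4.1 ranged from -0.38 to -0.21 at 12 h against 2 h, -0.17 to 0.039 at 48 h, -0.090 to 0.098 at 96 h and 0.20 to 0.38 in mature leaves. LHCB4.2 ranged from -0.096 to 0.10 at 4 h, -0.19 to 0.087 at 48 h and -0.19 to 0.027 at 96 h. LHCB4.3 ranged from -0.59 to -0.42 at 4 h, -0.025 to 0.13 at 24 h against 2 h, -0.015 to 0.088 at 48 h and 0.39 to 0.57 at 96 h. LHCB4.2 minus LHCB4.1 ranged from -0.11 to 0.056 at 24 h against 2 h, -0.054 to 0.11 at 48 h and 0.26 to 0.57 in mature leaves. LHCB4.3 minus LHCB4.1 ranged from -0.89 to -0.59 at 4 h and -0.0010 to 0.24 at 48 h, and LHCB4.3 minus LHCB4.2 from -0.011 to 0.27 at 48 h. Without a mature replicate the lone array was assumed to vary like the other groups. The 9 probe sets called at 48 h became 4 with a pseudocount of 1, 2 with the filter at the 60th percentile and 5 with the first 24 h array. Leaving out replicates 1, 2, 3 and 4 of the 24 h leaves gave 14, 3, 0 and 0, and leaving out those of the 48 h leaves gave 4, 0, 17 and 7.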

Other observations

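One array was titled 4 h replicate 1 but noted as ES where the other developing arrays were noted as AS, and it entered no comparison. It gave a signal of 3315 for LHCB4.1, 2563 for LHCB4.2 and 256 for LHCB4.3.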
